A study of Homo sapiens with 10 samples.

Results

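The genes described here are the ATG8 proteins and the selective autophagy receptors, together with the phagophore protein WIPI1, in RPE-1 cells treated with sulforaphane (SFN). They were chosen by gene symbol, with earlier results of these data known. The 10 members, GABARAP, GABARAPL1, GABARAPL2, MAP1LC3B, SQSTM1, NBR1, OPTN, TAX1BP1, CALCOCO2 and WIPI1, were found among the 28380 genes of the count table, and all 10 were among the 13378 genes with enough counts to be tested. RPE-1 is an established, immortalized human retinal pigment epithelial cell line, and SFN is a plant isothiocyanate, an electrophile that reacts with protein thiols. The series, titled for the acute activation of starvation responses by SFN, holds 5 libraries from RPE-1 cells given 25 µM SFN and 5 from RPE-1 cells given DMSO, the vehicle, each for 4 h and from 50000 cells. No other genotype, agent or time point was included, and the methods speak of independent replicates for the experiments in general. Neither they nor the labels say how these 5 replicates were made. The paper states that its own test allowed for repeated measures, without saying which libraries belong together. The main test here treated the libraries as unpaired. Its p-values measure the spread between these libraries, part of which may be technical. The values are raw counts from the 3′ ends of transcripts, and levels are given as CPM, that is counts scaled to a common library size after the TMM correction for composition of the edgeR package. Counts from bulk RNA cannot tell fewer cells with a transcript from less of it per cell.

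Autophagy encloses cytoplasmic material in a double membrane, the phagophore, which closes into an autophagosome and fuses with lysosomes. ATG8 proteins, made up of the LC3 and GABARAP subfamilies, are small ubiquitin-like proteins that a conjugation machinery attaches to phosphatidylethanolamine in this membrane. Selective autophagy receptors carry an LC3-interacting motif that binds membrane-bound ATG8 and another domain that binds the cargo, which is often tagged with ubiquitin. SQSTM1, NBR1, OPTN, TAX1BP1 and CALCOCO2 belong to this class and several of them are degraded with their cargo. WIPI1 binds phosphatidylinositol 3-phosphate on the growing phagophore and is used as a marker of its formation.

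SFN and the stresses it evokes are known to act through factors that bind short DNA elements, so the promoters of the members were searched for these letters. RefSeq (GRCh38.p14) gave 15 promoter windows for the 10 members, each running from 250 bases before to 50 bases after a transcription start. Each motif was searched on both strands, and the share of all 35116 promoter windows with a match is given beside it. The antioxidant response element bound by NRF2 (TGACNNNGC) was found in 2 of the 15 windows, those of MAP1LC3B and CALCOCO2, or 13.3%, which is also its share in all windows (13.3%). The heat shock element (GAANNTTC) was found in 2 windows, those of GABARAPL2 and TAX1BP1 (13.3%, against 6.77% of all windows). Neither the CLEAR core bound by TFEB (TCACGTGA, 0.98% of all windows), the E-box inside it (CACGTG, 7.26%) nor the ATF4 composite element (TGATGNAA, 3.62%) was found in any of the 15 windows, which says only that these letters were not there. The 250 bases before the start are shown for the 4 members with a match and for GABARAP, which had none and whose transcript rose. They are written 5′ to 3′ on the strand of the gene, with matches in capitals. They cover chr16:87392086-87392335 for MAP1LC3B (plus strand), chr17:48830785-48831034 for CALCOCO2 (plus strand), chr16:75566129-75566378 for GABARAPL2 (plus strand), chr7:27739123-27739372 for TAX1BP1 (plus strand, one of its starts) and chr17:7242450-7242699 for GABARAP (minus strand).
MAP1LC3B: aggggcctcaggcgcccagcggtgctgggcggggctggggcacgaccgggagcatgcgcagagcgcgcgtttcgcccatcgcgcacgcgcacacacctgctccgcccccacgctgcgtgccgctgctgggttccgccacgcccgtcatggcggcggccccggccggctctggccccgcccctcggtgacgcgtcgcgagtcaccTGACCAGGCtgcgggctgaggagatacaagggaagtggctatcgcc
CALCOCO2: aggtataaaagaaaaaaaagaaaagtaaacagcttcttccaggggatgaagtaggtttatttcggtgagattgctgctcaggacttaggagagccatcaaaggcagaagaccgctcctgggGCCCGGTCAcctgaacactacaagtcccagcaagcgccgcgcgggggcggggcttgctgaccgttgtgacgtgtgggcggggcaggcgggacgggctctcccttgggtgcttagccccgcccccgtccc
GABARAPL2: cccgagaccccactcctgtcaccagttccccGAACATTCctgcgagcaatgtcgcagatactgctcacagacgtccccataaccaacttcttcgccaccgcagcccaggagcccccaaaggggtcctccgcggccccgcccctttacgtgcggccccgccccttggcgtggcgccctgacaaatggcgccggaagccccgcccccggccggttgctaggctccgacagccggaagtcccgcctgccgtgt
TAX1BP1: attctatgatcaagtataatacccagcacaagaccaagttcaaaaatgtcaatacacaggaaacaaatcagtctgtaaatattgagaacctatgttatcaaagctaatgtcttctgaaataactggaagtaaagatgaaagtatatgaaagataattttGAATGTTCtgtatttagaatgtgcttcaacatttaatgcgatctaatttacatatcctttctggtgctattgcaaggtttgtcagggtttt
GABARAP: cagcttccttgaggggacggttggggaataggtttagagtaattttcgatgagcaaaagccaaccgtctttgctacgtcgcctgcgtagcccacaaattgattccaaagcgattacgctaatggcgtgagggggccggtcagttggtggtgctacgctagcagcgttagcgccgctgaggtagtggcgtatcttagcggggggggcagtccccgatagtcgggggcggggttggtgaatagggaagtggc
In MAP1LC3B the match TGACCAGGC began at position -46 from the start, and in CALCOCO2 the match lay at -129 on the opposite strand, where it reads GCCCGGTCA along the gene. GABARAPL2 held GAACATTC at -219 and TAX1BP1 GAATGTTC at -91. These are matches of letters, and binding was not measured.

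Library totals ranged from 15689294 to 20666692 counts in DMSO and from 12375860 to 17308706 in SFN. DMSO replicate 1 stood apart, with a mean Spearman correlation across genes of 0.935 with the other DMSO libraries, against 0.979 to 0.982 for those 4 and 0.982 to 0.991 in SFN. Leaving it out raised the number of calls across the whole table. Values without it are given beside the members whose call it changed and beside some of the other such genes. Of 12 genes chosen as markers of the RPE-1 line, 9 had enough counts to be tested. Means in DMSO and SFN were 383 and 449 CPM for the epithelial keratin KRT8, 196 and 236 for KRT18, 5690 and 6630 for vimentin (VIM), 449 and 497 for CDH2 and 119 and 110 for TJP1. Of the pigment epithelium genes, BEST1 had 18.8 and 42.4 CPM, MITF 50.8 and 23.4, OTX2 14 and 9.01 and PMEL 1 and 1.11, whereas RPE65 and RLBP1, which define mature pigment epithelium, had at most 3 and 4 counts in any library. The part of these differences in the results for the members was not tested. Markers of other cell types (10 listed, 0 with enough counts to be tested) summed to 0 to 0.623 CPM in DMSO and 0 to 0.417 CPM in SFN.

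Most of the 10 members passed the test as higher after 4 h of SFN in the main fit. In the edgeR quasi-likelihood fit, with p-values adjusted by Benjamini-Hochberg across the whole table, 7 of the 10 members were significantly increased, against 9.07% of all genes, and 0 were decreased, against 13.9% of all genes (at an unadjusted p under 0.05, 8 and 0, against 14.6% and 20% of all genes). The log2 fold change was positive for all 10, with a median of 0.44, while the median over all genes was -0.028 and 47.4% of genes were positive. Since the members were chosen with earlier results of these data known, these shares describe them and do not test them as a set. The increases were moderate, since 0 members changed more than 2-fold, a size that 8.69% of all genes reached with an adjusted p under 0.05. In 6 members, every SFN library lay above every DMSO library, which held for 8.78% of all genes. Without DMSO replicate 1, 9 of the 10 were significantly increased, all but OPTN, against 22.5% of all genes in that fit. DESeq2 called 8 on the full set, against 12.2% of all genes. Each member was positive in all 19 alternative settings. With limma-voom sample quality weights all 10 were called, where 3874 of all genes were higher. In many other settings the number called was lower than in the main fit. It fell to 3 under library-size scaling alone, with no low-count filter or without SFN replicate 4. In those settings 6.12%, 4% and 6.74% of all genes were increased. It was 4 with the replicate block and 5 with quantile normalized limma-voom, where 911 and 1338 of all genes were higher. Without any other single library, DMSO replicate 1 apart, it was 4 or 5, with 906 to 1141 of all genes higher. Scaling by library size alone moved the median over all genes to -0.11, with 2982 of all genes called and 819 of all genes higher, against 3076 called and 1214 higher with TMM, and MAP1LC3B, GABARAP and NBR1 were the 3 members called under it. These 3 were called in all 19 settings.

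**Figure D1:**
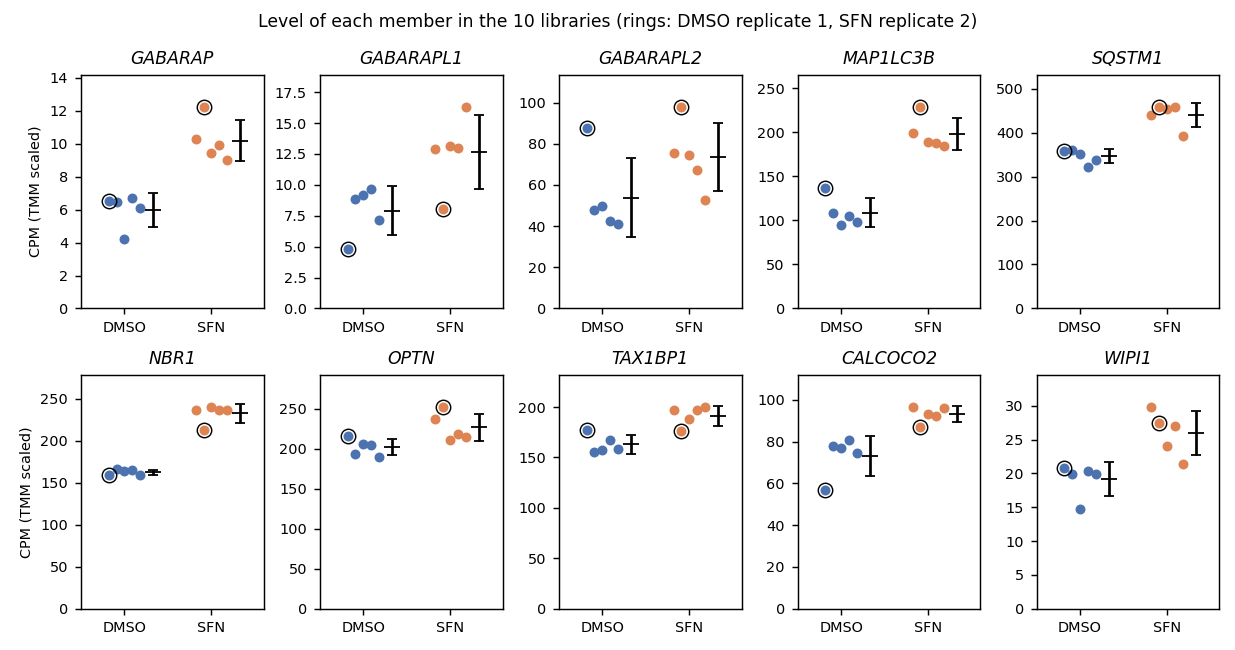
The level of each of the 10 members (CPM, vertical axis starting at 0) is plotted for the 5 DMSO and the 5 SFN libraries, with the mean and SD of each group, and rings mark DMSO replicate 1 and SFN replicate 2. The groups are separate for GABARAP, MAP1LC3B, SQSTM1, NBR1, CALCOCO2 and WIPI1, and the ringed DMSO library is the highest of its group for GABARAPL2 (87.9 CPM) and the lowest for CALCOCO2 (56.7 CPM).

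MAP1LC3B encodes LC3B, the ATG8 protein whose lipidated form is the usual marker of autophagosomes. Its gene lies at chr16:87383953-87404779 (GRCh38, plus strand) and its canonical transcript has 4 exons and 2147 bases. In DMSO replicates 1 to 5 it stood at 137, 109, 95.2, 105 and 98.2 CPM, and in SFN replicates 1 to 5 at 199, 229, 189, 188 and 184 CPM. The SFN libraries all lay above the DMSO libraries, and the highest DMSO value was that of replicate 1. The mean rose from 109 ± 16.7 to 198 ± 18.3 CPM (SD, n = 5 each), a log2 fold change of 0.86 ± 0.12 (SE; edgeR adjusted p = 0.00035), and without DMSO replicate 1 the log2 fold change was 0.95. MAP1LC3B had the smallest adjusted p of the 10 members.

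GABARAP, the founder of the other ATG8 subfamily, was counted at low depth, with 75 to 142 counts in DMSO and 127 to 173 in SFN. The gene lies at chr17:7240008-7242449 (minus strand, 4 exons). Its DMSO libraries stood at 6.54, 6.47, 4.19, 6.69 and 6.10 CPM and its SFN libraries at 10.3, 12.2, 9.46, 9.92 and 9.04 CPM, in the order of replicates 1 to 5. Every SFN library was above every DMSO library, and DMSO replicate 3 was below the other 4. GABARAP rose from 6.0 ± 1.03 to 10.2 ± 1.24 CPM (log2 fold change 0.76 ± 0.16 SE, adjusted p = 0.0040 by edgeR). The annotation places a same-strand protein-coding model, ENSG00000262526, over the 3′ end of GABARAP. Reads of GABARAP could thus be divided between the 2 models or left out, depending on the counting. On the opposite strand AC120057.3 (ENSG00000279641) overlaps GABARAP, though not its 3′ end. Counts of AC120057.3 were 15 to 77 in DMSO and 81 to 233 in SFN (log2 fold change 1.56 ± 0.45 SE, adjusted p = 0.027 by edgeR). They were lowest, like those of GABARAP, in DMSO replicate 3. Whether reads passed between these genes was not tested, since the use of strand in the counting was not given in the sources used here.

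GABARAPL1 and GABARAPL2, close relatives of GABARAP, changed less clearly. GABARAPL1 (chr12:10212458-10223128, plus strand) stood at 4.80, 8.84, 9.17, 9.64 and 7.16 CPM in DMSO and at 12.9, 8.02, 13.1, 12.96 and 16.3 CPM in SFN. Its depth was also low, with 77 to 194 counts in DMSO and 93 to 231 in SFN. The groups overlapped because SFN replicate 2 lay among the DMSO values. GABARAPL1 rose from 7.92 ± 1.98 to 12.7 ± 2.97 CPM (log2 fold change 0.68 ± 0.22 SE, adjusted p = 0.043 by edgeR). The call rested on the set of libraries: it held without DMSO replicate 1 (log2 fold change 0.54, adjusted p = 0.019), DMSO replicate 4 or SFN replicate 2 but was lost when any other library was left out, with adjusted p up to 0.097.

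For GABARAPL2 (chr16:75566375-75577881, plus strand) the DMSO libraries stood at 87.9, 47.9, 49.98, 42.3 and 41.3 CPM and the SFN libraries at 75.4, 98.0, 74.5, 67.3 and 52.7 CPM. DMSO replicate 1 was above 4 of the 5 SFN libraries, whereas the other 4 DMSO libraries were below all of them. The means were 53.9 ± 19.4 and 73.6 ± 16.4 CPM, and the log2 fold change of 0.45 (95% confidence interval -0.041 to 0.94) did not pass the test (adjusted p = 0.18 by edgeR). Without DMSO replicate 1 the log2 fold change of GABARAPL2 was 0.69 with an adjusted p of 0.0015. The 3′ end of GABARAPL2 overlaps a long non-coding RNA gene, ENSG00000259992, on the opposite strand, and whether reads passed between them was not tested. The median log2 fold change of the 4 ATG8 members was 0.72, and 3 of them were significantly increased, against 9.07% of all genes.

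Copies of these genes could share reads with them. MAP1LC3B2, a near-identical copy of MAP1LC3B, had 10 to 17 counts in DMSO and 12 to 26 in SFN, and the processed copy MAP1LC3BP1 had at most 3, beside 1659 to 3339 for MAP1LC3B itself. The log2 fold change of MAP1LC3B2 was 0.73 (adjusted p = 0.075 by edgeR), and 0.89 without DMSO replicate 1 (adjusted p = 0.023 by edgeR). GABARAPL3, a copy of GABARAPL1, had at most 1 count. MAP1LC3A, another LC3 gene, had 4 to 15 counts in DMSO and 5 to 15 in SFN and was too low to be tested. MAP1LC3C was not found among the genes of the count table. How reads matching several copies were treated was not given in the sources used here.

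Among the 5 receptors, NBR1 had the largest log2 fold change. NBR1 is a relative of SQSTM1 that binds ubiquitinated aggregates and peroxisomes, and it lies on chromosome 17. It stood at 160, 166, 164, 165 and 159 CPM in DMSO and at 237, 213, 240, 237 and 237 CPM in SFN. The DMSO libraries differed little, and SFN replicate 2 was the lowest of its group but above every DMSO library. NBR1 rose from 163 ± 3.09 to 233 ± 11.1 CPM (log2 fold change 0.52 ± 0.085 SE, adjusted p = 0.0010 by edgeR), and in the 10 fits that each left out a library the log2 fold change of NBR1 ranged from 0.51 to 0.55.

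SQSTM1, also called p62, gathers ubiquitinated proteins into bodies and binds KEAP1, the inhibitor of NRF2. The gene lies at chr5:179806398-179838078 (plus strand, 8 exons). Its levels were 359, 361, 350, 323 and 337 CPM in DMSO and 440, 459, 453, 457 and 392.2 CPM in SFN. The groups were separate, and SFN replicate 5 was the closest to DMSO. SQSTM1 rose from 346 ± 16.1 to 440 ± 27.8 CPM (log2 fold change 0.35 ± 0.093 SE, adjusted p = 0.018 by edgeR). The call was lost without DMSO replicate 4, SFN replicate 3 or SFN replicate 4, with adjusted p up to 0.059. The 3′ end of SQSTM1 overlaps that of MRNIP on the opposite strand, which had 142 to 206 counts in DMSO and 115 to 174 in SFN, against 5316 to 7919 for SQSTM1.

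CALCOCO2, or NDP52, recruits the autophagy machinery to invading bacteria and damaged mitochondria, and lies at chr17:48831018-48866522 (plus strand). In DMSO it stood at 56.7, 78.1, 76.8, 80.7 and 74.5 CPM and in SFN at 96.5, 87.1, 93.3, 92.1 and 96.2 CPM. DMSO replicate 1 was well below the other DMSO libraries, and all SFN libraries were above all DMSO libraries. CALCOCO2 rose from 73.3 ± 9.58 to 93.1 ± 3.81 CPM (log2 fold change 0.34 ± 0.11 SE, adjusted p = 0.042 by edgeR). Without DMSO replicate 1 the log2 fold change was smaller, at 0.26, with an adjusted p of 0.010, and without any other single library the call of CALCOCO2 was lost (adjusted p up to 0.097).

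TAX1BP1 and OPTN, which also bind ubiquitin on their cargo, had the smallest log2 fold changes of the members. TAX1BP1 (chr7:27739331-27844564, plus strand) stood at 178, 155, 157, 168 and 158 CPM in DMSO and at 197, 176, 188, 197 and 200 CPM in SFN. SFN replicate 2 was below DMSO replicate 1, and otherwise the groups were separate. The means were 163 ± 9.35 and 192 ± 9.91 CPM, with a log2 fold change of 0.23 (95% confidence interval 0.035 to 0.43) that missed the threshold (adjusted p = 0.087 by edgeR), and without DMSO replicate 1 it was 0.26 with an adjusted p of 0.011.

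OPTN, a receptor in mitophagy and xenophagy that the kinase TBK1 phosphorylates, lies at chr10:13099449-13138308 (plus strand). Its levels were 216, 194, 205, 204 and 190 CPM in DMSO and 237, 251.9, 211, 218 and 215 CPM in SFN. The groups overlapped, with DMSO replicate 1 above SFN replicates 3 and 5. OPTN had means of 202 ± 10.3 and 227 ± 17.2 CPM and a log2 fold change of 0.17 (95% confidence interval -0.037 to 0.37), which did not pass the test with all libraries (adjusted p = 0.24) or without DMSO replicate 1 (adjusted p = 0.062, both by edgeR). The 5 receptors had a median log2 fold change of 0.34, and 3 of them were significantly increased, against 9.07% of all genes.

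WIPI1 lies at chr17:68420948-68457513 (minus strand, 13 exons). It stood at 20.9, 19.96, 14.7, 20.3 and 19.9 CPM in DMSO and at 29.8, 27.4, 24.1, 27.0 and 21.5 CPM in SFN. The groups did not overlap, though SFN replicate 5 was close to the DMSO libraries and DMSO replicate 3 was below the rest. WIPI1 rose from 19.1 ± 2.51 to 26.0 ± 3.22 CPM (log2 fold change 0.44 ± 0.13 SE, adjusted p = 0.031 by edgeR). Its call held in 3 of the 10 fits that each left out a library, without DMSO replicate 1, SFN replicate 3 or SFN replicate 5, and was lost in the other 7, with adjusted p up to 0.086. The 3′ end overlaps ARSG on the opposite strand, with 74 to 123 counts in DMSO and 69 to 108 in SFN.

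**Figure D2:**
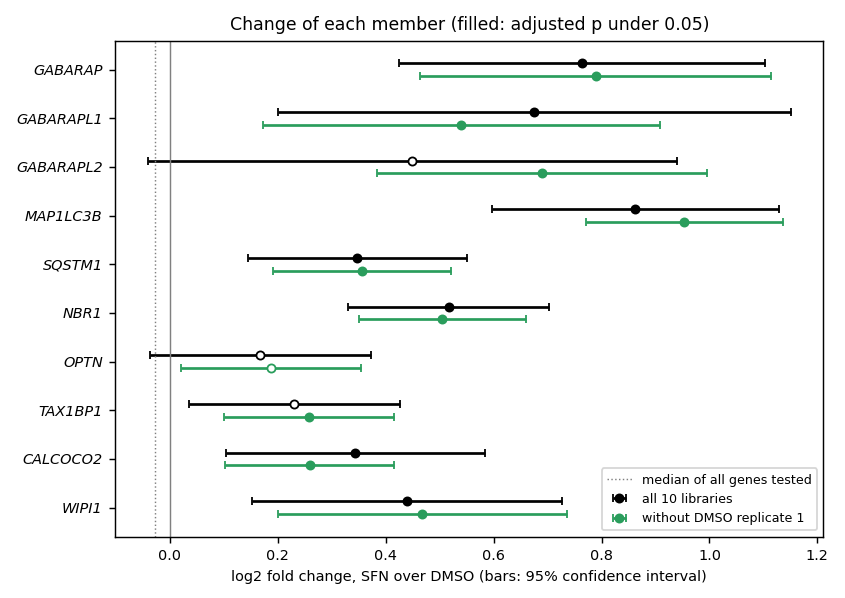
The log2 fold change of SFN over DMSO (horizontal axis) is drawn for each member with its 95% confidence interval, for all 10 libraries and without DMSO replicate 1, with filled points for an adjusted p under 0.05 and a dotted line at the median of all genes tested (-0.028). Every point lies right of 0, and leaving out DMSO replicate 1 moves GABARAPL2 from 0.45 to 0.69 and narrows most intervals.

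DMSO replicate 1 and SFN replicate 2 departed from their groups in the same direction for the ATG8 members. On the log2 scale, DMSO replicate 1 differed from the other DMSO libraries by 0.95 for GABARAPL2, 0.43 for MAP1LC3B, -0.79 for GABARAPL1 and -0.45 for CALCOCO2, and by -0.033 to 0.17 for the other 6 members. SFN replicate 2 differed from the other SFN libraries by 0.55 for GABARAPL2, 0.27 for MAP1LC3B, 0.33 for GABARAP and -0.74 for GABARAPL1. With both libraries left out, an alternative chosen after the data were seen, 9 of the 10 members were significantly increased, against 23.2% of all genes.

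Whether members of one role changed unequally was asked with ratios of counts inside each library, which do not depend on the scaling between libraries. Exact 2-sided permutation tests over the 10 libraries were run for the 6 pairs of ATG8 members and the 10 pairs of receptors, with a pseudocount of 0.5. After Benjamini-Hochberg adjustment over the 16 pairs, 0 ratios passed the threshold (smallest adjusted p = 0.13), and 5 pairs had an unadjusted p under 0.05. The smallest p this design allows is 0.0079, so that at least 3 pairs would have to reach it for any to pass, and the test could hardly show unequal change in a single pair. NBR1 relative to TAX1BP1 was the one ratio whose groups did not overlap, with a log2 ratio of -0.0018 ± 0.096 in DMSO and 0.28 ± 0.043 in SFN (SD, n = 5 each; exact p = 0.0079, adjusted p = 0.13). NBR1 relative to OPTN differed by 0.35 on the log2 scale (exact p = 0.016, adjusted p = 0.13). GABARAPL2 relative to MAP1LC3B differed by -0.39 (exact p = 0.024, adjusted p = 0.13). Ratios between an ATG8 member and a receptor were not tested. The difference in log2 ratio of GABARAPL1 to GABARAPL2 (SFN minus DMSO) was 0.20 with all libraries and -0.16 without DMSO replicate 1, and passed the test in neither case.

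**Figure D3:**
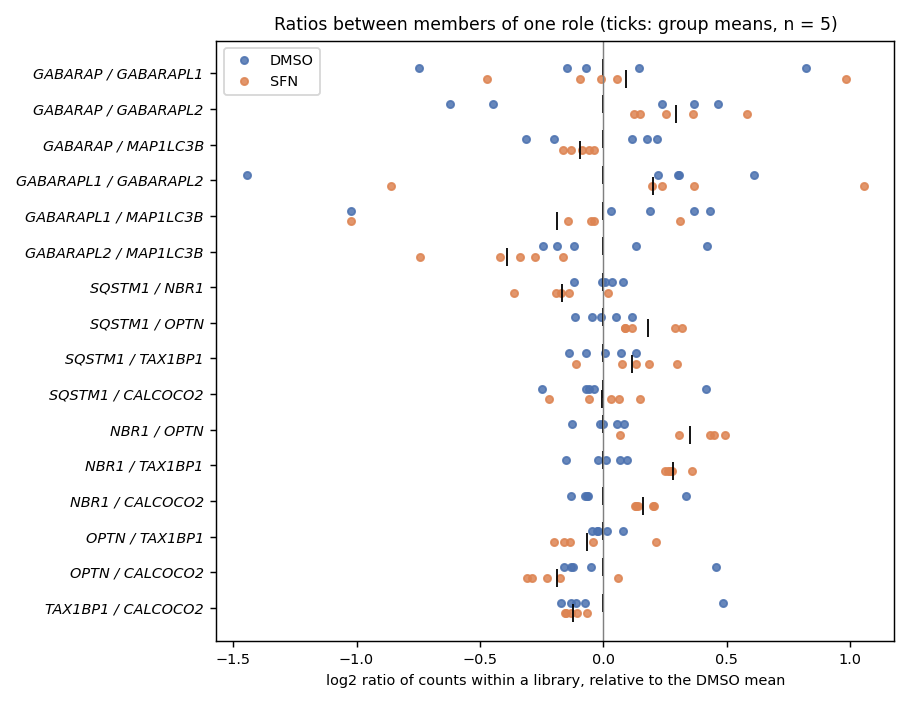
The log2 ratio of counts of each pair of members of one role is plotted for every library, relative to the mean of the DMSO libraries (horizontal axis), with ticks at the group means (n = 5). DMSO and SFN points are separate for NBR1 / TAX1BP1 and overlap for the other 15 pairs.

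Calls among the rest of the autophagy machinery went in both directions, with more increases than decreases. Of 73 other autophagy genes listed by role, 69 had enough counts to be tested, of which 11 were significantly increased and 5 decreased by the same test (9.07% and 13.9% of all genes), and 47 had a positive log2 fold change. Their median was 0.18, against 0.44 for the members and -0.028 for all genes. Without DMSO replicate 1, 27 were increased and 10 decreased, against 22.5% and 23.5% of all genes in that fit. The lists by role are short, so the counts by role that follow describe single genes and not the roles. They stand beside 9.07% increased and 13.9% decreased among all genes.

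The machinery that attaches ATG8 proteins to membranes had 2 of 11 genes increased and 0 decreased (median log2 fold change 0.15). ATG12, the ubiquitin-like protein whose conjugate with ATG5 directs lipidation, rose from 95.3 ± 11.6 to 155 ± 9.47 CPM (log2 fold change 0.70 ± 0.11 SE, adjusted p = 0.00060 by edgeR). ATG4A, a protease that trims ATG8 precursors, rose by a log2 fold change of 0.50 (adjusted p = 0.016). ATG3, the enzyme that transfers ATG8 to the lipid, had 131 ± 31.4 and 143 ± 14.4 CPM (adjusted p = 0.60), and without DMSO replicate 1 its log2 fold change was 0.28 (adjusted p = 0.028). ATG10, named here after its values were seen, had the largest log2 fold change of this group at 1.15, with a spread in SFN as wide as its mean (42.7 ± 42.9 CPM), and did not pass the test (adjusted p = 0.15).

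In the ULK1 complex, which starts autophagy, 1 of 5 genes was increased: the scaffold ATG13 rose from 29.1 ± 3.17 to 41.4 ± 4.70 CPM (log2 fold change 0.51, adjusted p = 0.0084 by edgeR). RB1CC1, or FIP200, which receptors such as CALCOCO2 and SQSTM1 bind, had a log2 fold change of 0.51 that did not pass (adjusted p = 0.065) and 0.74 without DMSO replicate 1 (adjusted p = 4.9e-06). Of 8 genes of the class III phosphatidylinositol 3-kinase complexes, which make the lipid that WIPI1 binds, 0 were increased and PIK3R4, the regulatory subunit VPS15, fell from 25.7 ± 2.70 to 17.8 ± 3.32 CPM (log2 fold change -0.53, adjusted p = 0.017). BECN1 had 121 ± 19.5 and 123 ± 5.59 CPM (adjusted p = 0.89).

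Genes of the phagophore membrane had 3 of 9 increased, 1 decreased and a median log2 fold change of 0.45. ZFYVE1, or DFCP1, a phosphatidylinositol 3-phosphate binding protein of the omegasome, rose from 12.1 ± 2.87 to 22.6 ± 1.98 CPM (log2 fold change 0.90 ± 0.17 SE, adjusted p = 0.0030 by edgeR). WIPI2, the relative of WIPI1 that recruits ATG16L1, rose from 34.0 ± 2.07 to 52.1 ± 6.15 CPM (log2 fold change 0.61, adjusted p = 0.0018), and WDR45B, or WIPI3, rose by a log2 fold change of 0.37 (adjusted p = 0.042). VMP1, an endoplasmic reticulum scramblase needed for autophagosome formation, fell from 103 ± 6.93 to 84.9 ± 2.41 CPM (log2 fold change -0.28, adjusted p = 0.036). TMEM41B, which acts with VMP1, had a log2 fold change of 0.48 (adjusted p = 0.053), and 0.38 without DMSO replicate 1 (adjusted p = 0.029) or 0.56 without SFN replicate 2 (adjusted p = 0.030).

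Of 17 other receptors, 3 were increased and 1 decreased (median log2 fold change 0.22). BNIP3L, or NIX, a mitophagy receptor, rose from 124 ± 20.3 to 180 ± 8.99 CPM (log2 fold change 0.53, adjusted p = 0.0066 by edgeR). BCL2L13, another mitochondrial receptor, rose by a log2 fold change of 0.54 (adjusted p = 0.032), and RTN3, a receptor for tubules of the endoplasmic reticulum, by 0.42 (adjusted p = 0.0090). NUFIP1, a nuclear protein also described as a receptor for ribosomes, fell by 0.64 on the log2 scale (adjusted p = 0.022). SEC62, a translocon protein with a receptor role, varied widely in DMSO, at 321 ± 178 against 297 ± 43.3 CPM (log2 fold change -0.12, adjusted p = 0.81), and without DMSO replicate 1 its log2 fold change was 0.29 (adjusted p = 0.028).

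Among 6 partners of the receptors, 2 were increased and 1 decreased. TANK, an adaptor of TBK1, rose from 31.1 ± 2.73 to 55.6 ± 5.43 CPM (log2 fold change 0.84 ± 0.11 SE, adjusted p = 0.00019 by edgeR). AZI2, or NAP1, which links TBK1 to CALCOCO2 and TAX1BP1, rose by a log2 fold change of 0.41 (adjusted p = 0.033). TBKBP1, or SINTBAD, the third adaptor, fell from 3.10 ± 0.927 to 1.57 ± 0.278 CPM (log2 fold change -0.99, adjusted p = 0.016). The kinase TBK1 itself had 67.9 ± 17.4 and 78.0 ± 8.24 CPM (adjusted p = 0.50). In the last group, of 12 genes for the fusion of autophagosomes with lysosomes, 0 were increased and VPS18, a core subunit of the HOPS tethering complex, fell from 39.95 ± 4.56 to 24.7 ± 1.65 CPM (log2 fold change -0.69, adjusted p = 0.00070). The fusion SNARE YKT6 had a log2 fold change of 0.33 that did not pass (adjusted p = 0.053) and 0.42 without DMSO replicate 1 (adjusted p = 0.00056).

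Of these 16 calls outside the members, 11 (ATG4A, ATG12, ATG13, PIK3R4, WIPI2, ZFYVE1, BNIP3L, RTN3, TANK, TBKBP1 and VPS18) held in each of the 10 fits that left out a library. NUFIP1 lost its call without SFN replicate 3 or SFN replicate 4 (adjusted p up to 0.055). WDR45B, VMP1, BCL2L13 and AZI2 kept theirs in 1, 2, 3 and 3 of the 10 fits, and each of the 4 kept it without DMSO replicate 1.

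**Figure D4:**
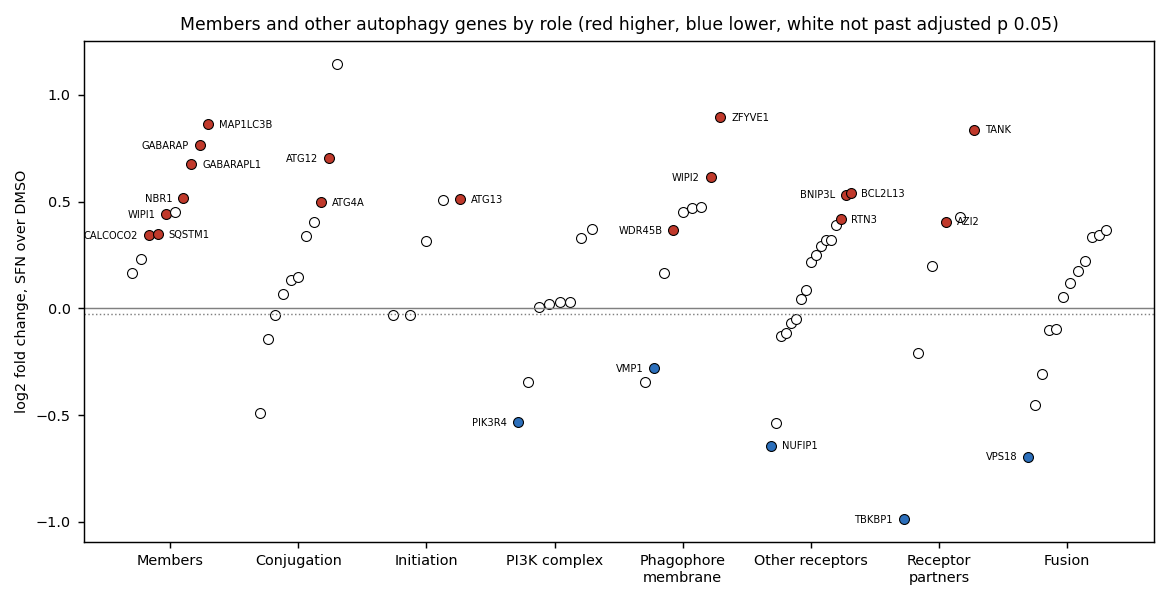
The log2 fold change of SFN over DMSO (vertical axis) is plotted by role for the members and the other autophagy genes tested, except MAP1LC3B2. Points are red for significantly increased, blue for decreased and white for not past an adjusted p of 0.05. The members hold 7 red and 0 blue points and the other genes 11 red and 5 blue. Among the other genes, ZFYVE1 (0.90), TANK (0.84) and ATG12 (0.70) are the highest red points and TBKBP1 (-0.99) is the lowest blue point.

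Among genes with a mean of at least 5 CPM, those whose log2 CPM followed MAP1LC3B most closely over the 10 libraries included SERP1 (Pearson r = 0.99), MIR22HG (0.99), DUSP6 (0.99) and HSPA8 (0.99). HSPA8 encodes the constitutive HSP70 chaperone that also acts in chaperone-mediated autophagy, and SERP1 a stress-associated protein of the endoplasmic reticulum. After the group means were removed, r lay between 0.87 and 0.93 for these 4 genes. The genes were picked by their r in these same libraries, which also share group and depth, so both sets of values are descriptions.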

How the data were processed

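RNA from RPE-1 cells (5 DMSO and 5 SFN replicates) was sequenced by the authors with Lexogen QuantSeq, which reads 3′ ends. What they deposited were raw counts for each Ensembl gene, without normalization. The methods name the Bluebee pipeline, and the submitters' processing notes name FastQC, STAR, featureCounts, edgeR and GRCh38. Versions, strand, molecular identifiers, reads matching several genes and the annotation release are not given in the sources used here, so genes with overlaps or copies are less certain.

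Samples were grouped by the treatment in the labels. Counts were filtered with filterByExpr, scaled by TMM and compared with glmQLFit and glmQLFTest of edgeR 4.0.16 (R 4.3.3), with Benjamini-Hochberg adjustment over 13378 genes and a threshold of 0.05. Standard errors were obtained as the size of the log2 fold change over the square root of F. limma 3.58.1 and DESeq2 1.42.0 served as alternatives, beside other scalings, filters, a replicate block and leaving out libraries. Positions are from GENCODE 44, which held 28145 of the 28380 identifiers. The scripts were tested on simulated data. The chi-square per degree of freedom between replicates was 3.7 to 270, so none was counted as a duplicate.

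The members and lists were chosen with earlier results of these data known. All 10 members are named. In each role of the other autophagy genes, those called and the uncalled gene with the highest mean CPM are named. ATG10 was named in addition, after its values were seen. For the member with the smallest adjusted p, the 5 genes with the highest correlation were taken, of which 1 is not reported here.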

Additional observations from a re-analysis of the deposited data

Results flagged for a closer look

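In 6 of the 20 groups of 5 libraries (10 members in DMSO and SFN), 1 library lay so far from the others that its gap, as a share of the range of the group, was above Dixon's limit for 5 values. Chance flags about 1 in 20 such groups. For GABARAP, DMSO replicate 3 (4.19 CPM, nearest library 6.10) had a share of 0.764. For GABARAPL2, DMSO replicate 1 (87.9 CPM, nearest 49.98) had 0.813, and for CALCOCO2 the same library (56.7 CPM, nearest 74.5) had 0.744. For SQSTM1, SFN replicate 5 (392.2 CPM, nearest 440) had 0.722. For NBR1, SFN replicate 2 (213 CPM, nearest 237) had 0.86. For WIPI1, DMSO replicate 3 (14.7 CPM, nearest 19.9) had 0.842. Thus 2 of the 6 lay in DMSO replicate 1 and 2 in DMSO replicate 3 (GABARAP and WIPI1). The same libraries recur for every member, so the 20 groups are not independent. The cause was not tested.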

How the results depend on the processing

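The number of members significantly increased (7) was 3 with library-size scaling alone, 3 with no low-count filter and 5 with quantile normalized limma-voom. It was 10 with limma-voom sample quality weights. It was 3 to 9 when each library was left out (3 without SFN replicate 4, 9 without DMSO replicate 1, and 4 or 5 without any other). Among the other autophagy genes, 11 increased became 6 with no low-count filter, 32 with limma-voom sample quality weights, 27 without DMSO replicate 1 and SFN replicate 2 together (chosen after the data were seen), and 8 to 27 when each library was left out. The 5 decreased became 3 with quantile normalized limma-voom, 12 with quality weights, 10 without both libraries and 3 to 10 when each was left out, lowest without SFN replicate 3. The number of all genes called (3076) became 7915 with quality weights, 6379 without both libraries and 2383 to 6251 when each was left out, highest without DMSO replicate 1; that of all genes higher (1214) became 3874, 3106 and 906 to 3058. BECN1 turned negative with library-size scaling (-0.041), with quantile normalization (-0.012) and without DMSO replicates 4 or 5 (log2 fold change -0.0096 to 0.13 over the libraries left out, 0.14 without both). SEC62 turned positive with quality weights (0.25), without both libraries (0.21) and without DMSO replicate 1 (-0.21 to 0.29 over the libraries left out). The cause of these changes was not tested. At 75 to 173 counts a library for GABARAP and 77 to 231 for GABARAPL1, counting error is part of the spread of both.

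The replicate numbers gave no clear sign of pairing. Of 5 pairs with a shared number, 1 had deviations from the group means correlated above 0.1 (r from -0.33 to 0.56). Of 10 libraries, 2 correlated best with their own number. These few correlations cannot settle whether libraries were paired, and the paper states that its own test allowed for repeated measures. With the replicate block, 4 members were increased, 3 other autophagy genes were decreased and SEC62 had a log2 fold change of 0.011. GABARAPL1, SQSTM1 and CALCOCO2 lost their calls there (adjusted p = 0.077, 0.072 and 0.097 by edgeR). With sign flips of the differences between same-numbered libraries, 0 ratios passed, where the smallest possible p is 0.0625.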
